A study of Mus musculus with 5 samples.

Results

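The mu class glutathione transferases of the mouse are encoded by the 7 genes Gstm1, Gstm2, Gstm3, Gstm4, Gstm5, Gstm6 and Gstm7. Their probe sets were taken as all those that the annotation of the platform assigns to one of these genes, with gene IDs named from a reference gene table. This gave 12 of the 45101 probe sets on the array, and 7 of the 18194 genes. No probe set was annotated to a Gstm gene and a further gene together. The study set inbred strains side by side to follow up a locus linked to expression, and read liver RNA of RIIIS/J, NZW/LacJ, C57BL/6J, FVB/NJ and BALB/CByJ on 5 Affymetrix arrays of the Mouse430_2 design. Each strain gave 1 array, made from a pool of 3 males that were 10 weeks old and untreated, and the labels name no engineered allele. Since no strain has a replicate, values and fold thresholds are given with no test and no p-value. A difference between arrays holds strain, animals, collection and array together. Whether the probes bind equally well to the RNA of each strain was not tested, nor was signal shared among Gstm genes.

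Glutathione transferases join the thiol of glutathione to electrophilic compounds, which makes those compounds more soluble and ready for export from the cell. The mu class is cytosolic, works as dimers of like or unlike subunits, and is abundant in hepatocytes, where it acts on products of drug oxidation and of lipid peroxidation. The genes arose by duplication and lie side by side, in mouse on chromosome 3, and in humans the GSTM1 member is often absent through a common deletion. Several mouse members are known to be inducible through the transcription factor Nrf2.

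Intensities are on the deposited linear scale, and a detection floor of 8.41 was used. Of the readings of 86 probe sets for receptors of smell, pheromones and taste on the 5 arrays, 95% did not pass it. All 7 Gstm genes were above this floor on all 5 arrays on the probe set that represents the gene, which is the one with the highest mean. Hepatocyte markers were close among strains, with 1 of 9 detected markers at least 2-fold between the highest and the lowest strain. Other tissue markers set 2 arrays apart. The summed intensity of 7 exocrine pancreas markers was 67017 in RIIIS/J, against 717 to 1298 in the other 4 strains. That of 8 B cell markers was 26821 in FVB/NJ, against 337 to 887 in the other 4, and that of 7 erythroid markers was 6150 in FVB/NJ, against 1305 to 3766. Of 7 detected T and NK cell markers, 4 were at least 2-fold above the nearest strain in FVB/NJ, and their list summed to 313 against 51.2 to 53.0. Cd3e, Cd4 and Cd8a were within 2-fold over the strains, with Cd4 under the floor in FVB/NJ. Among the erythroid markers Alas2 was highest in NZW/LacJ, at 3444 against 2861 in FVB/NJ. FVB/NJ was also at least 2-fold above the nearest strain for 3 of 10 Kupffer cell and macrophage markers. It was so for 3 of 8 detected stellate cell and fibroblast markers. Of all detected genes, 12.0% were that far above or below the nearest strain in some strain. The ratio of 3' to 5' signal of Gapdh was between 0.901 and 1.01, and that of Actb was highest in FVB/NJ at 4.98 and lowest in RIIIS/J at 2.76. The part of other tissue or of RNA quality in the Gstm values was not tested. In such bulk samples fewer cells of a type and less RNA per cell cannot be told apart.

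The promoters of the 4 genes with the widest opposed differences, described next, are shown so that the region before each start can be read beside the values. Gstm2, Gstm3 and Gstm6 read low in NZW/LacJ and RIIIS/J, while Gstm7 read high there. Each window runs from 250 bases before to 50 bases after the outermost annotated start, from RefSeq on GRCm38.p6, 5' to 3' on the strand of the gene. The windows hold this reference build alone, and sequence differences between the strains were not read. Capitals mark matches, on either strand, to the motifs named below.
Gstm2, chr3:107986371-107986670, minus strand: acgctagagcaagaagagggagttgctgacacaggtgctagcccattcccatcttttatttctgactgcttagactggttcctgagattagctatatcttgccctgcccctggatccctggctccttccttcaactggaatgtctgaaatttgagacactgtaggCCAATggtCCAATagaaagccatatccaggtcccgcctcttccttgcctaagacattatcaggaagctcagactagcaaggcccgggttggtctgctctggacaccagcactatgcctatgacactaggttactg
Gstm3, chr3:107969125-107969424, minus strand: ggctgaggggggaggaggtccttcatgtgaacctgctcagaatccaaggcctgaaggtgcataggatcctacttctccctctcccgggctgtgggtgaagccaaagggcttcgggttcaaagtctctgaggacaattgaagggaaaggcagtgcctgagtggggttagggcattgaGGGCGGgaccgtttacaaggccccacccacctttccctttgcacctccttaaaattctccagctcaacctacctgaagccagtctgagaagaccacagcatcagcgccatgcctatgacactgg
Gstm6, chr3:107953417-107953716, minus strand: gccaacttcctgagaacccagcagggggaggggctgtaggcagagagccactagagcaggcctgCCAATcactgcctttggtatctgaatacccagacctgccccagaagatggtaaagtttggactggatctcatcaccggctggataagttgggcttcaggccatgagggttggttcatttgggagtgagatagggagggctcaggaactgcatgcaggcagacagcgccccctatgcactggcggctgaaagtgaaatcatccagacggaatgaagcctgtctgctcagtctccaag
Gstm7, chr3:107931768-107932067, minus strand: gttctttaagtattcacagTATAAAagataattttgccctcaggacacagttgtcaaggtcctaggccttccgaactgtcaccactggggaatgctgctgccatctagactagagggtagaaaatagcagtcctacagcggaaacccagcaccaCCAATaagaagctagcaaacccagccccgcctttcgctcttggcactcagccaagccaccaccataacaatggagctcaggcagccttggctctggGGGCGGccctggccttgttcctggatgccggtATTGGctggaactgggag

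All 7 members differed by at least 2-fold between the highest and the lowest strain, a range that 30.5% of 11909 detected genes reached. The median log2 range was 3.11 over the members and 0.67 over all detected genes. A range of at least 4-fold was reached by 5 members (9.56% of all detected genes), Gstm2, Gstm3, Gstm5, Gstm6 and Gstm7, and the same 5 reached 8-fold (4.49%). Since the genes were chosen with strain differences on these arrays known, this share is a description. NZW/LacJ and RIIIS/J were the 2 lowest strains for 5 members (15.2% of all detected genes) and the 2 highest strains for the other members, Gstm4 and Gstm7 (10.3% of all detected genes). This ordering was picked out after the values were seen. The gap to the next strain was 4.01-fold to 5.89-fold for Gstm2, Gstm3, Gstm6 and Gstm7. It was narrow for Gstm1 and Gstm5, where NZW/LacJ was 1.08-fold and 1.13-fold below FVB/NJ. It was also narrow for Gstm4, with RIIIS/J 1.09-fold above C57BL/6J. On another Gstm1 probe set BALB/CByJ, FVB/NJ and NZW/LacJ read the same, and on a further one FVB/NJ and NZW/LacJ did. Without the RIIIS/J array 6 of 7 members kept a range of at least 2-fold (23.6% of all genes), Gstm1 falling short. Without the FVB/NJ array 6 of 7 did (20.3%), Gstm4 falling short. With RIIIS/J, the array with the pancreas signal, left out, the range was 22.2-fold for Gstm2, 15.7-fold for Gstm6, 9.71-fold for Gstm3, 7.21-fold for Gstm7 and 2.12-fold for Gstm5.

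**Figure D1:**
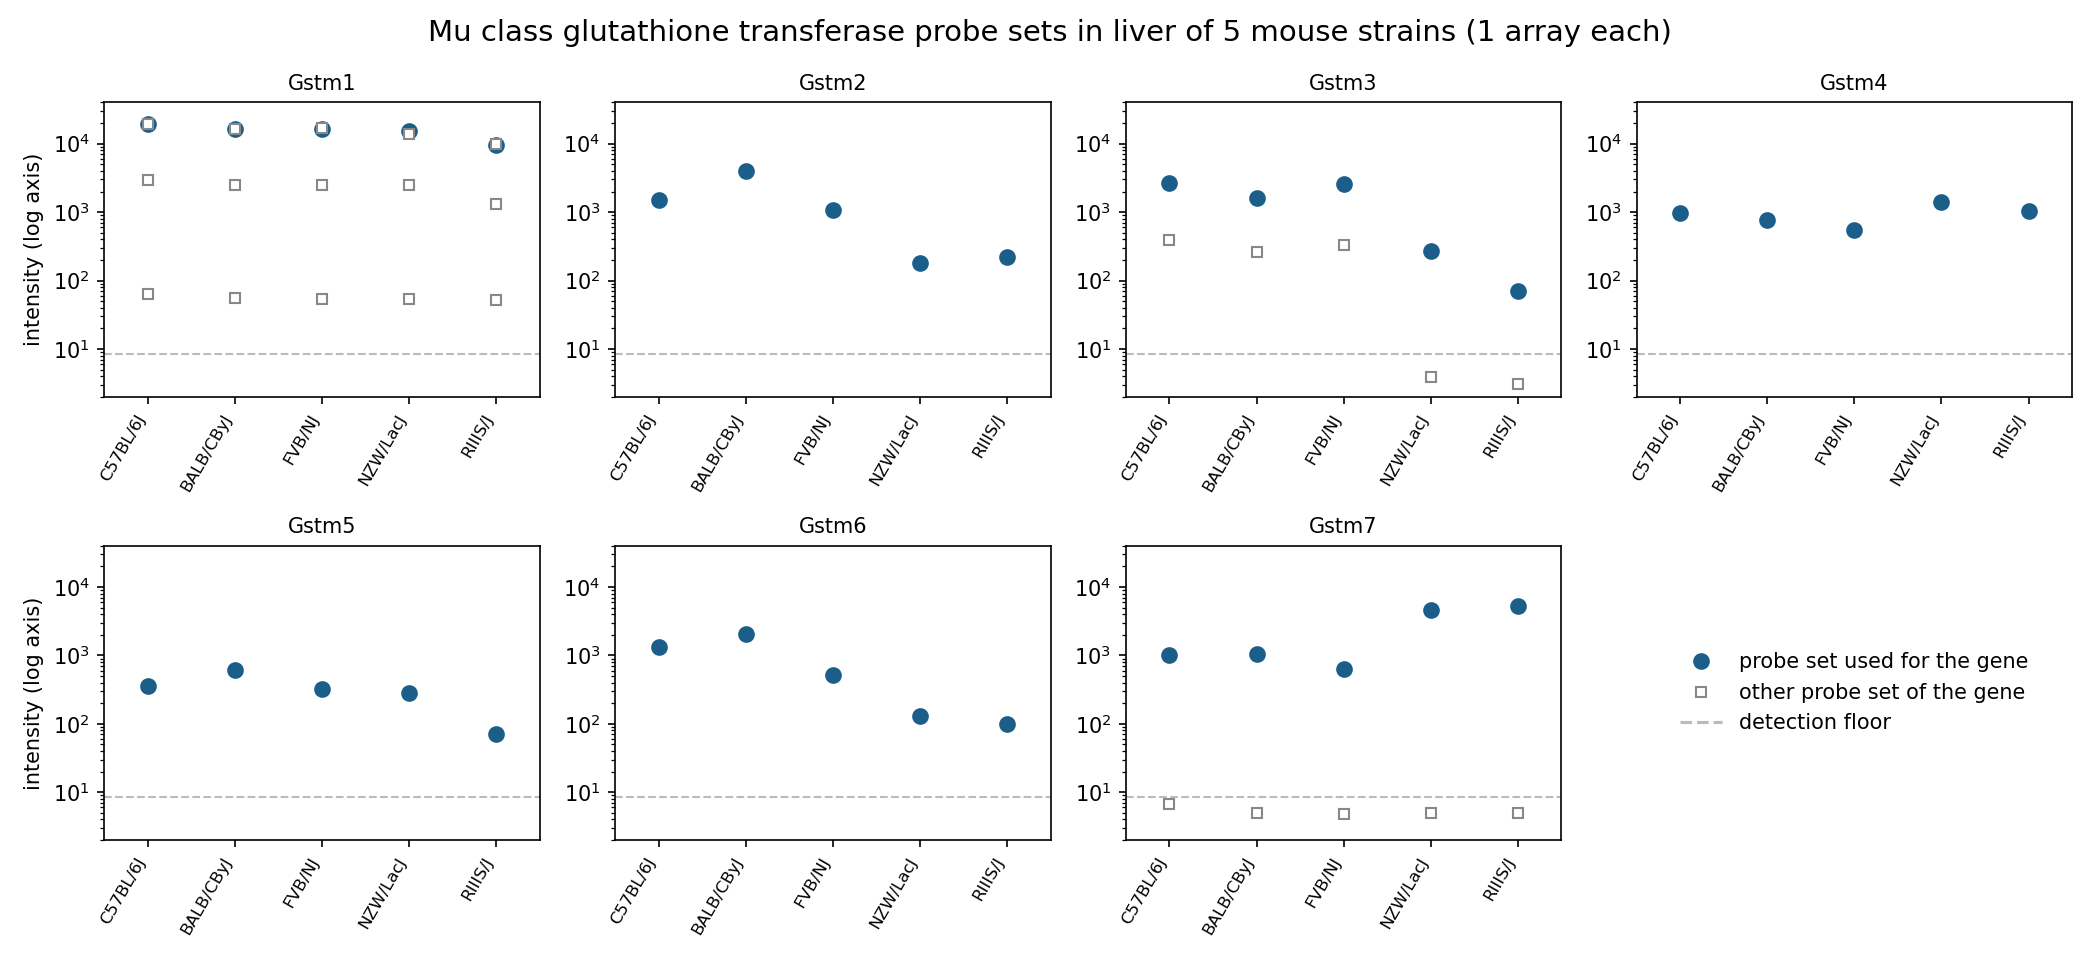
Intensity on a log axis of every Gstm probe set on the 5 arrays, 1 point for each array and no error bars. Filled circles are the probe set used for the gene, open squares its other probe sets, and the dashed line is the detection floor of 8.41. Gstm2, Gstm3 and Gstm6 sit lowest in NZW/LacJ and RIIIS/J, Gstm7 sits highest there, and the second Gstm3 probe set falls under the floor in both.

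Gstm3, a member whose expression in mouse liver is known to respond to Nrf2, had the widest range. Its intensity was 2629 in C57BL/6J, 1595 in BALB/CByJ, 2562 in FVB/NJ, 271 in NZW/LacJ and 71.2 in RIIIS/J. C57BL/6J and FVB/NJ lay within 1.03-fold of each other, BALB/CByJ was 1.61-fold below FVB/NJ, and the remaining pair of strains stood far below. The highest strain was 36.9-fold above the lowest, rank 102 among the ranges of all detected genes. RIIIS/J was 3.80-fold below NZW/LacJ, its nearest strain, which 1.72% of genes were by at least 2-fold. The probe set behind these values ends in _s_at, a name given to probe sets that match several transcripts, possibly of different genes. The other Gstm3 probe set, which has no such ending, read 394 in C57BL/6J, 260 in BALB/CByJ, 331 in FVB/NJ, 3.96 in NZW/LacJ and 3.10 in RIIIS/J. It kept the order of C57BL/6J, FVB/NJ and BALB/CByJ and was under the floor in NZW/LacJ and RIIIS/J, so that C57BL/6J was at least 46.8-fold above either of these.

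Gstm2, whose human counterpart is known from muscle, read 1526 in C57BL/6J, 4041 in BALB/CByJ, 1081 in FVB/NJ, 182 in NZW/LacJ and 217 in RIIIS/J. BALB/CByJ stood alone at the top, 2.65-fold above C57BL/6J, where 0.798% of all genes were at least 2-fold above the nearest strain. FVB/NJ was 4.97-fold above RIIIS/J, the next strain down, while RIIIS/J and NZW/LacJ lay within 1.20-fold of each other. From top to bottom the range was 22.2-fold.

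Gstm6, a less studied member, read 1323 in C57BL/6J, 2045 in BALB/CByJ, 523 in FVB/NJ, 131 in NZW/LacJ and 99.5 in RIIIS/J. The strains took the order of Gstm2 except that RIIIS/J, not NZW/LacJ, was lowest, and these 2 strains were within 1.31-fold. FVB/NJ stood between the others, 2.53-fold below C57BL/6J and 4.01-fold above NZW/LacJ. The range was 20.5-fold, and the only probe set of the gene ends in _a_at, a name for probe sets that match several transcripts of the same gene.

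Gstm5, whose product is best known from brain and testis, read 356 in C57BL/6J, 603 in BALB/CByJ, 321 in FVB/NJ, 284 in NZW/LacJ and 70.0 in RIIIS/J. Here only RIIIS/J was far from the rest, 4.06-fold below NZW/LacJ, while C57BL/6J, FVB/NJ and NZW/LacJ were within 1.25-fold. BALB/CByJ was highest, as for Gstm2 and Gstm6, and the range was 8.62-fold.

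Gstm7 ran the other way. It read 1015 in C57BL/6J, 1060 in BALB/CByJ, 633 in FVB/NJ, 4562 in NZW/LacJ and 5196 in RIIIS/J. RIIIS/J and NZW/LacJ lay within 1.14-fold of each other, and NZW/LacJ was 4.31-fold above BALB/CByJ, the next strain. The range was 8.21-fold. The second Gstm7 probe set read 4.78 to 6.82 and was under the floor on all 5 arrays, so it gave no measure of these differences.

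Gstm1, the main mu class subunit of mouse liver, and Gstm4 differed least. Gstm1 read 19614 in C57BL/6J, 16674 in BALB/CByJ, 16659 in FVB/NJ, 15376 in NZW/LacJ and 9673 in RIIIS/J. The first 4 strains were within 1.28-fold and RIIIS/J was 1.59-fold below the nearest of them, giving a range of 2.03-fold, just past the threshold. On its other probe sets the difference of C57BL/6J minus RIIIS/J was 0.99, 1.17 and 0.29 on the log2 scale. The first 2 are on probe sets that end in _x_at, one of the endings removed in an alternative below. The last is on a dim probe set without such an ending, at 51.8 to 63.3. Gstm4 read 966 in C57BL/6J, 765 in BALB/CByJ, 546 in FVB/NJ, 1407 in NZW/LacJ and 1053 in RIIIS/J. Its strains formed a graded series whose largest gap was 1.40-fold, over a range of 2.58-fold with NZW/LacJ highest and FVB/NJ lowest. For scale, the deviations of 2 detected probe sets of a gene on the same array differed by a median of 0.19 on the log2 scale over the whole table, with a 95th percentile of 0.87.

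Of the 7 members, 3 were at least 2-fold away from their nearest strain in some strain, where 12.0% of all detected genes were. These were Gstm2 in BALB/CByJ on the high side and Gstm3 and Gstm5 in RIIIS/J on the low side. The Gstm3 call rests on the probe set ending in _s_at, since on the other one RIIIS/J and NZW/LacJ were both under the floor. The wide ranges of Gstm6 and Gstm7 came without such an isolated strain, as NZW/LacJ and RIIIS/J lay within 1.31-fold and 1.14-fold of each other. Without NZW/LacJ the count was 5 members (13.1% of all genes), with Gstm6 and Gstm7 called in RIIIS/J. Without RIIIS/J it was 4 (11.6%), with Gstm2, Gstm3, Gstm6 and Gstm7 called in NZW/LacJ.

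The 10 pairs of strains, which share arrays with each other, divided in the same way. C57BL/6J and BALB/CByJ differed at least 2-fold in 1 member, Gstm2, against 4.85% of all genes. C57BL/6J and FVB/NJ differed in 1 member, Gstm6 (10.8% of all genes), and BALB/CByJ and FVB/NJ in 2, Gstm2 and Gstm6 (11.0%). NZW/LacJ and RIIIS/J differed in 2, Gstm3 and Gstm5 (7.23%). The pairs that set NZW/LacJ or RIIIS/J beside one of the other 3 strains had more members apart. C57BL/6J differed from NZW/LacJ in 4 members (7.20%) and from RIIIS/J in 6 (9.04%), Gstm4 being the exception at 0.13 lower in C57BL/6J on the log2 scale. BALB/CByJ differed from NZW/LacJ in 5 (8.26%) and from RIIIS/J in 5 (10.7%). FVB/NJ differed from NZW/LacJ in 5 (14.4%) and from RIIIS/J in 5 (16.5%). In each of these 6 pairs Gstm2, Gstm3 and Gstm6 were higher, and Gstm7 lower, in C57BL/6J, BALB/CByJ or FVB/NJ than in its partner.

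**Figure D2:**
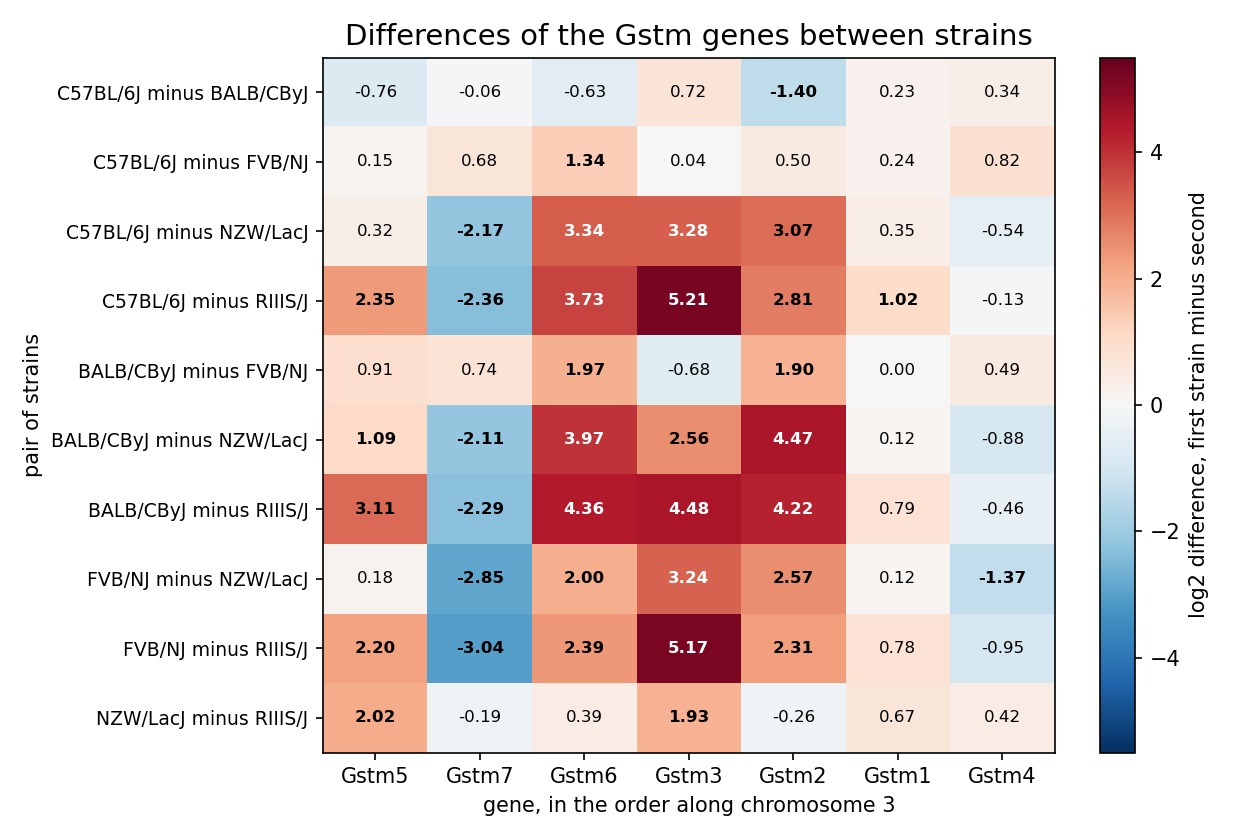
Log2 differences of the 7 Gstm genes for the 10 pairs of strains, first strain minus second, with genes in their order along the chromosome and bold numbers from 1 upwards in size. Red is higher and blue lower in the first strain. The 6 pairs of C57BL/6J, BALB/CByJ or FVB/NJ with NZW/LacJ or RIIIS/J are red for Gstm2, Gstm3 and Gstm6, up to 5.21, and blue for Gstm7, at -2.11 to -3.04.

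The genes lie in the order Gstm5, Gstm7, Gstm6, Gstm3, Gstm2, Gstm1 and Gstm4 on the reference gene table of GRCm38.p6, which was used for order alone. Gstm5 is read from the plus strand and the others from the minus strand. The members at least 2-fold lower in NZW/LacJ and RIIIS/J than in each other strain, Gstm6, Gstm3 and Gstm2, are thus adjacent. Gstm7, which was high there, is next to Gstm6. These strains were also the 2 lowest for Gstm5, which lies beyond Gstm7, and for Gstm1, next to Gstm2. For Gstm4, at the far end, they were the 2 highest. For Gstm5, Gstm1 and Gstm4 these orders rest on gaps of 1.08-fold to 1.13-fold. The 10 protein-coding genes on either side were read for comparison. Of these 20 genes, 18 had a probe set of their own and 11 were detected. Among the 11, 2 had a range of at least 2-fold, where 30.5% of all detected genes had one. Their median log2 range was 0.48, against 0.67 over all detected genes. Ampd2, an AMP deaminase gene next to Gstm4, read 2186 in RIIIS/J, 4.22-fold more than NZW/LacJ at 518, and 282 to 355 in the others. These Ampd2 values are on a probe set that ends in _x_at. The other Ampd2 probe set, without such an ending, read 60.2 to 62.7 and showed no such difference. Slc16a4, a monocarboxylate transporter family gene and the tenth gene before Gstm5, read 16.0 in RIIIS/J against 44.2 to 55.8. The genes closest on the Gstm5 side were nearly level or undetected, with Csf1 at 41.0 to 48.1, Ahcyl1 at 1743 to 2157 and Eps8l3 under the floor. Gnai3, beyond Ampd2, read 1268 in NZW/LacJ and 1719 to 1983 elsewhere.

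**Figure D3:**
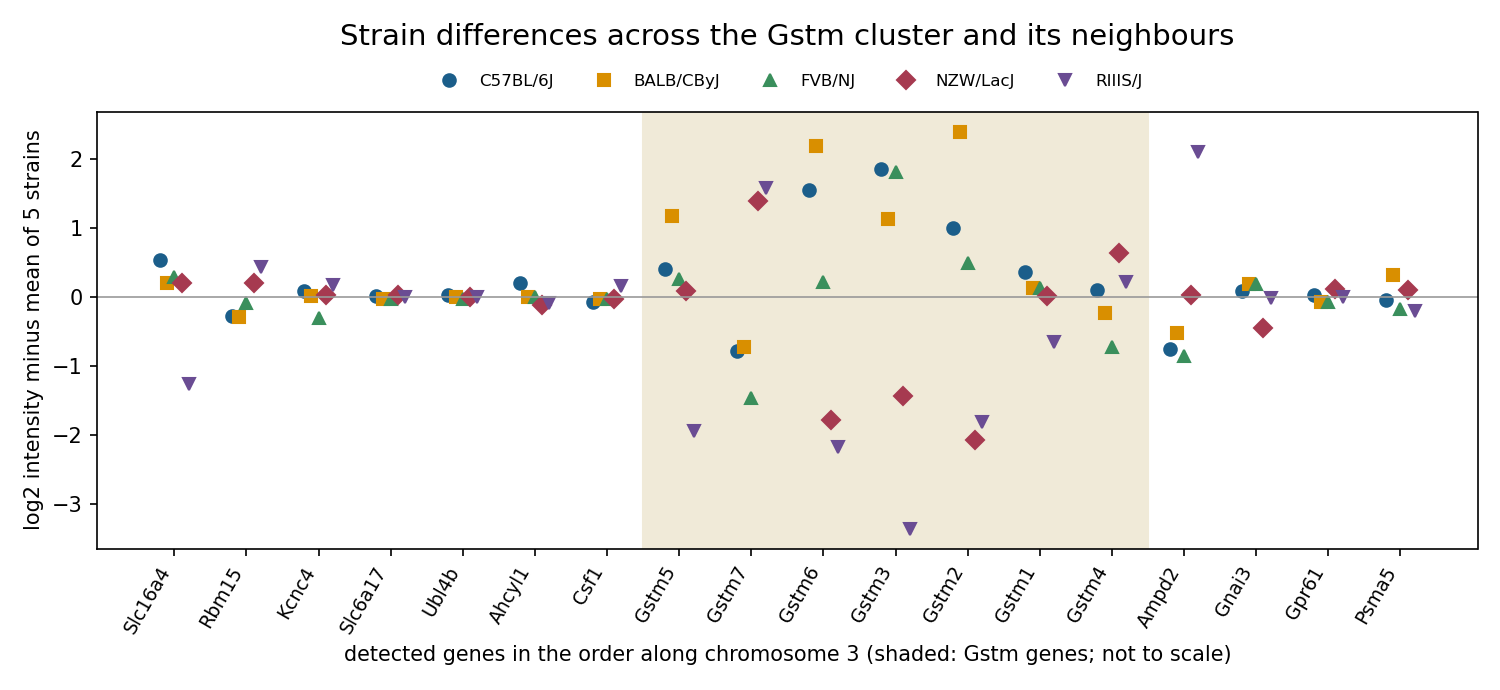
Log2 intensity minus the mean of the 5 strains for detected genes in order along chromosome 3, spaced evenly and not to scale, 1 point for each array. The shaded part holds the Gstm genes. The spread is wide from Gstm5 to Gstm2, narrower at Gstm1 and Gstm4, and under 2-fold at most neighbours. It is wide again in RIIIS/J at Ampd2, with a range of 7.75-fold on the probe set used. The other Ampd2 probe set, not drawn, was level.

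In the 12 promoter windows that RefSeq gave for the 7 genes, matches to short motifs were counted on both strands. The CCAAT box, CCAAT, was in 10 of 12 member windows and in 37.4% of 32851 mouse windows of the same length. The windows of several starts of Gstm1, Gstm4 and Gstm7 overlap, so they are not separate counts. Counting bases from the start, the Gstm2 window has a close pair at -85 and -77, the Gstm6 window shown has 1 match at -186, the Gstm7 window shown has matches at -96 and 32, and Gstm3 has none. The GC box, GGGCGG, was in 6 windows (35.7% of all), among them Gstm3 at -74 and Gstm7 at the start itself, and in Gstm4 a match overlaps a CCAAT box. TATAAA, the TATA box, was in 3 (13.6%), and in the Gstm1 window of the inner start it stands at -30. The core of the antioxidant response element to which Nrf2 binds, TGACNNNGC, was in 2 windows (12.4%), of Gstm5 and of an inner start of Gstm7. AGGTCA, a nuclear receptor half-site, was in 1 window, of Gstm1 (16.3%). The E-box CACGTG (7.15%) and the D-box forms TTATGTAA (0.938%) and TTACGTAA (0.119%) had no match in these windows. This says only that these letters are not there in the reference build. The windows of Gstm2 and Gstm3 share the run atgcctatgacact near their end, and those of Gstm1 and Gstm3 share tgagaagaccacagca. Over whole windows, global alignments gave 48.3% to 53.3% identity for the 21 pairs of members.

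The closest patterns among the 10390 other genes detected on all arrays were found by the root mean square difference of log2 values centred on each gene's mean, over the 5 strains. For Gstm2 the closest gene was Gstm6 (0.36), and for Gstm6 it was Gstm2. Next came Tmtc2 and Pcsk4, which encode an endoplasmic reticulum protein and a proprotein convertase, at 0.46 and 0.51 from Gstm2. For Gstm7 the closest were Snhg14 (0.23), a host RNA of small nucleolar RNAs, Chka (0.29), a choline kinase gene, and Leap2 (0.29), a liver peptide gene, which read 11933 in NZW/LacJ and 11843 in RIIIS/J, against 2405 to 3938 in the other strains. The probe sets of Chka disagreed on NZW/LacJ, since one that was not used read 42.6 there and 442 in RIIIS/J, against 54.7 to 58.4 in the other strains. The remaining Chka probe set was high in both, at 184 in NZW/LacJ and 329 in RIIIS/J, against 25.7 to 43.8. For Gstm5 they were Ncapd3 (0.15), Pyroxd2 (0.21) and Meak7 (0.22). For Gstm1 they were Syde2 (0.031), Dnajc22 (0.039) and Kiz (0.054), and for Gstm4 Magix (0.090), Ntm (0.10) and Ndufaf6 (0.11). The small distances at Gstm1 and Gstm4 stand beside the smallest ranges among the members.

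For Gstm3 the closest gene was Usp2, which encodes a rhythmic deubiquitinase, at 0.38. Tef (0.71) and Dbp (0.82), transcription factor genes driven by the circadian clock, followed. Usp2 read 914 in C57BL/6J, 718 in BALB/CByJ, 930 in FVB/NJ, 55.3 in NZW/LacJ and 23.4 in RIIIS/J, and its second probe set took the same order except that C57BL/6J was highest. The probe sets of Tef disagreed on NZW/LacJ. Tef read 301 in NZW/LacJ and 133 in RIIIS/J on the one used, against 1293 to 1530 in the others, but on another it read 90.4 in NZW/LacJ and 27.9 in RIIIS/J, against 89.4 to 168. The remaining Tef probe set was low in both strains, at no more than 13.3, against 27.8 to 49.2 in the others. Dbp read 1023 in NZW/LacJ and 75.5 in RIIIS/J, against 4940 to 8951 in the other strains. Clock activator genes were on the side of Gstm7. Clock read 723 in NZW/LacJ and 756 in RIIIS/J, against 214 to 286 in the other strains, and Arntl, its partner, read 68.1 in NZW/LacJ and 156 in RIIIS/J, against 13.7 to 14.1. Of 18 clock genes put together after these patterns were seen, NZW/LacJ and RIIIS/J were the 2 lowest strains for 11 and the 2 highest for 4, against 15.2% and 10.3% of all detected genes. For the other 3, Cry1, Nr1d1 and Noct, these strains were not both at the same end. Among the 18, 17 had a range of at least 2-fold, Hlf being the exception. No source used here gives the hour of collection. The part of clock phase in the Gstm values was not tested, and with 1 array per strain it cannot be told apart from strain.

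**Figure D4:**
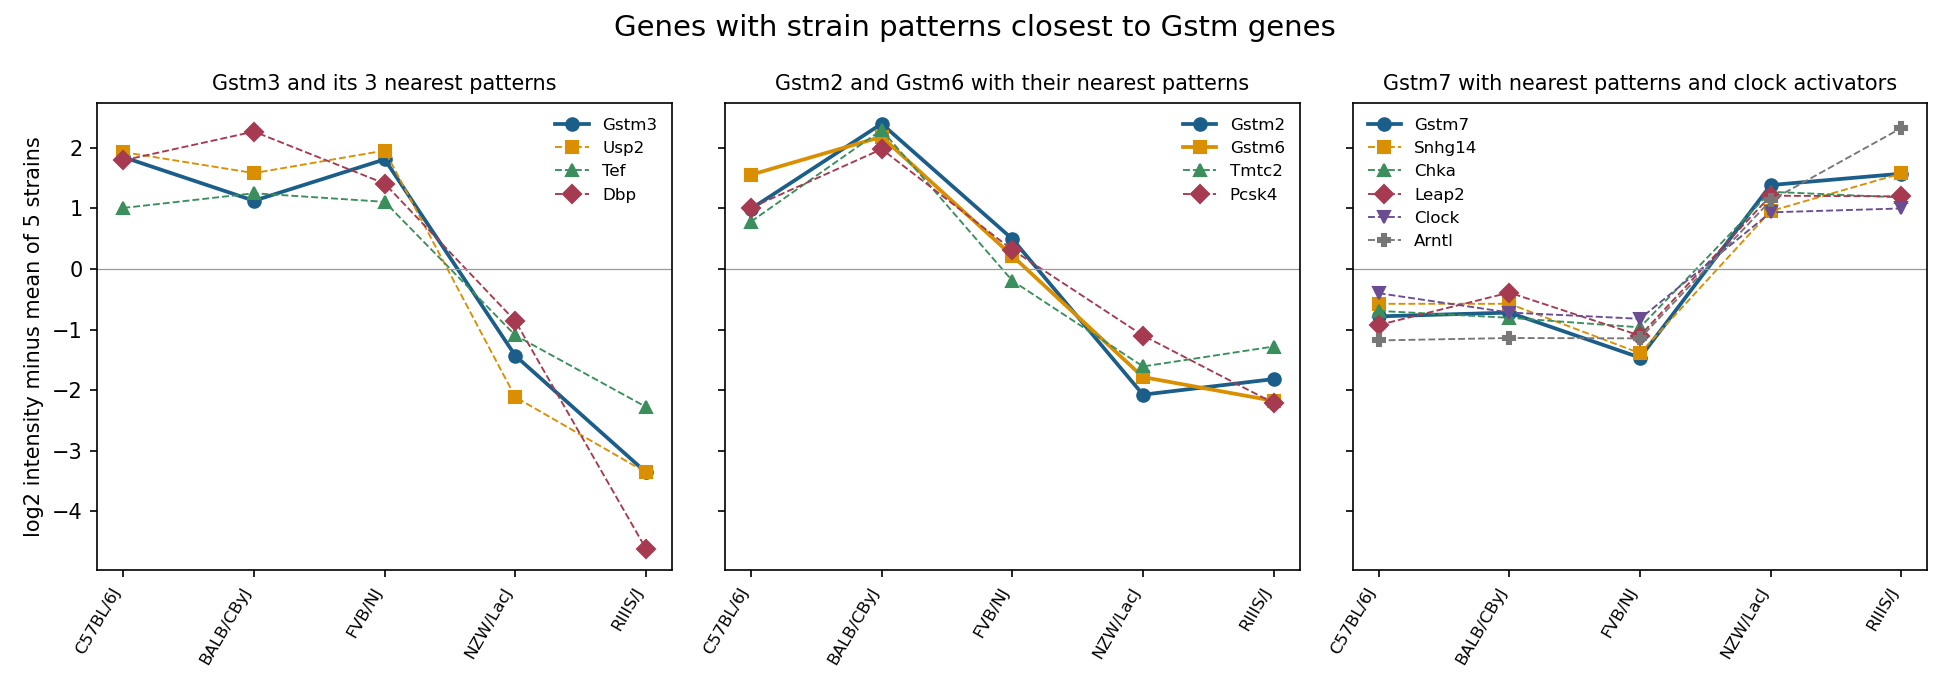
Log2 intensity minus the mean of the 5 strains for Gstm genes (solid lines) and the genes closest to them (dashed lines), with the clock activators Clock and Arntl added on the right. Lines only join the points of a gene, since the strains have no order. Gstm3 with Usp2, Tef and Dbp, and Gstm2 with Gstm6, are low in NZW/LacJ and RIIIS/J, and Gstm7 with its closest genes is high there, on the probe sets used. For Tef and for Chka, 1 other probe set differs from this in NZW/LacJ.

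Genes of the same pathway were read from lists, each beside the 30.5% of all detected genes with a range of at least 2-fold. Of 15 detected glutathione transferases of other classes, 8 had such a range. The widest were Mgst2 (at least 235-fold) and Gstp3 (93.8-fold), followed by Gstt3 (4.39-fold) and Gstt2 (3.04-fold). Mgst2, a microsomal member, read 1978 in NZW/LacJ and was under the floor in the other strains. Gstp3 of the pi class, whose close copies may share signal, read 18002 in FVB/NJ and 3271 in NZW/LacJ, against 192 to 303 in the others. Gstp1 (41282 to 56894) and the microsomal Mgst1 (37642 to 40876) were within 2-fold. The alpha class gene Gsta2 was highest in RIIIS/J at 18214, against 8378 to 12932.

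Glutathione synthesis and turnover genes had 6 of 21 detected members with such a range. Gclc and Gclm, which encode the subunits of the enzyme that limits glutathione synthesis, were not among them, at 9290 to 11267 and at 2932 to 3801. The widest were Cth (4.89-fold), a cysteine synthesis gene, Ggt6 (4.20-fold), Ggct (3.19-fold) and the glutaredoxin gene Glrx (2.81-fold). Among Nrf2 target genes 6 of 20 had such a range. The widest were Hmox1 (16.8-fold), Akr1b8 (3.55-fold), Abcc4 (3.36-fold) and Ugdh (2.93-fold). Nqo1, a standard Nrf2 target, read 16.8 to 24.3, and Srxn1 (341 to 622) and Txnrd1 (1069 to 1868) were within 2-fold. These lists share Gclc, Gclm and Slc7a11.

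Targets of the xenobiotic receptors CAR and PXR had 7 of 15 with such a range, led by Cyp2c37 (2510-fold), Cyp2b10 (14.9-fold), Cyp2c55 (14.5-fold) and Alas1 (13.1-fold). Alas1, the first enzyme of heme synthesis and a clock-driven gene, read 972 in NZW/LacJ and 1704 in RIIIS/J, against 6217 to 12738 in the other strains. Of 15 detected regulators known to act on glutathione transferase genes, 7 had a range of at least 2-fold. Cebpa (2.88-fold), Onecut1 (2.69-fold), Ahr (2.43-fold) and Cebpb (2.31-fold) were the widest, and Nfe2l2, the Nrf2 gene, read 601 in NZW/LacJ and 904 to 1063 elsewhere. Keap1, its inhibitor, read 197 to 291. Male-biased liver genes, read because these were livers of males, had 8 of 13 with such a range, with Susd4 (40.2-fold), Sult5a1 (19.9-fold), Ugt2b38 (18.8-fold) and Elovl3 (11.7-fold) the widest. The median log2 range of these lists was between 0.76 for glutathione synthesis and turnover and 1.41 for the male-biased list, and it was 1.11 for the other glutathione transferases.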

How the data were processed

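Per the submitters' processing notes, the authors made the deposited intensity values with GCOS and GCRMA. No source used here gives versions, settings or array batches. The deposited intensities are linear, and 29.1% of probe sets had equal values on at least 2 arrays. Probe sets were assigned to genes by the platform annotation, in which 34958 probe sets had 1 gene, 932 several and 9211 none. Of those with 1 gene, 34754 matched the reference gene table by gene ID and took its symbol, and the rest kept the platform symbol. The 932 and the 9211 were not used for gene values.

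Intensities were converted to log2, and a gene took its probe set with the highest mean. Values under the floor, from 86 receptor probe sets, were set to the floor, and a fold that rests on one carries "at least". Detected means above the floor on at least 1 array (11909 genes). Genes past 2-fold were counted among the members and among all detected genes. No paired analysis or test was run, and the number of arrays limits precision. Members and lists were chosen with earlier results of these data known, and the clock list after its genes were seen. Named genes were all members, the 4 widest past 2-fold of each list, the 3 closest patterns of each member and neighbours past 2-fold. Further genes named for context were chosen after their values were seen. The alternatives tried were the floor at the 99th percentile (27.4), no floor, quantile normalization, loess (span 0.3), the mean of probe sets, removal of _s_at, _x_at and _a_at probe sets, thresholds of 1.5-fold and 4-fold, leaving out each array and, added after seeing the data, single probe sets. The steps were tested on simulated data. Python 3.11.15, numpy 2.4.6, pandas 2.3.3, statsmodels 0.14.6, Biopython 1.88 and matplotlib 3.10.9 were used.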

Additional observations from a re-analysis of the deposited data

How the results depend on the processing

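No paired analysis was possible because the labels give 1 array for each strain. The floor, quantile and loess settings kept 7 of 7 members with a range of at least 2-fold (30.4% to 32.7% of all genes). They kept 3 isolated from the nearest strain (11.2% to 12.8%). The first count was 6 with the mean of probe sets (26.7%) and 6 of 6 without shared endings (30.9%), where Gstm6 has no probe set. Without those endings the second count was 2 (12.1%), with Gstm3 in RIIIS/J lost. Leaving out each array gave 6 to 7 (20.3% to 27.6%) and 3 to 5 (7.58% to 13.1%). A threshold of 1.5-fold gave 6 isolated members (25.8%) and one of 4-fold gave 1 (4.43%), with 5 members at that range (9.56%). Pair counts stayed within 1.5 times in 70 of 80 cases. At 1.5-fold C57BL/6J and BALB/CByJ had 4 members apart, C57BL/6J and FVB/NJ 3, and BALB/CByJ and FVB/NJ 5. At 4-fold these pairs had 0, 0 and 0, and NZW/LacJ and RIIIS/J had 1. Without shared endings C57BL/6J and FVB/NJ had 0, BALB/CByJ and FVB/NJ 1, and NZW/LacJ and RIIIS/J 1, with 6 members left to count. The floor settings could not change member values, since the lowest one used was 70.0, above the floors tried. Nor could the mean of probe sets for Gstm2, Gstm4, Gstm5, Gstm6 and Gstm7, as each has 1 probe set above the floor. Without shared endings Gstm1, Gstm2, Gstm4, Gstm5 and Gstm7 kept their probe set. Of 45 member ranges recomputed, these unchanged ones included, none reversed and 41 moved by less than the median disagreement between probe sets. The others were Gstm3, at 6.10 with the mean of probe sets and 5.55 on its other probe set, the first including values under the floor in NZW/LacJ and RIIIS/J and the second held at it, and Gstm1 on its dim probe set (0.29). Neither quantile nor loess scaling moved the median of detected genes by more than 0.052 on the log2 scale on any array.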
